A study of Mus musculus with 6 samples.

Results

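The genes described here are 9 genes of extracellular lipid transport: the apolipoproteins Apoe, Clu and Apod, the particle enzyme Lcat, the lipid exporters Abca1 and Abcg1, and the receptors Lrp1, Vldlr and Scarb1. They were chosen by symbol, and all 9 were found among the 14327 genes of the deposited expression table. RNA had been sequenced from 6 libraries of mouse neurospheres, clusters of neural stem cells and their progeny that float in the medium. They were grown from hippocampus at postnatal day 0, with B27, N2, EGF and bFGF in the medium. The 3 libraries labelled cKO came from mice with a conditional knockout of Slc22a17, whose product is a membrane receptor that takes up lipocalin 2, a protein that can carry iron. The other 3 came from wild-type (WT) mice. The Cre line, the strain, the deleted part of the gene and the number of animals behind a library are not stated in the sources at hand, so p-values reflect only how far these libraries scatter, and part of that scatter may be technical.

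Lipids move between brain cells on small particles that astroglia secrete. Abca1 moves cholesterol and phospholipid onto lipid-poor apolipoprotein E, Abcg1 adds cholesterol to the growing particle, and Lcat esterifies that cholesterol. Endocytic receptors such as Lrp1 and Vldlr then take up the particle, while Scarb1 takes up cholesteryl ester selectively. Transcription of Apoe, Abca1 and Abcg1 is known to be driven by the liver X receptors (LXR), nuclear receptors that bind oxysterols.

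Values are FPKM, fragments per kilobase of transcript scaled to the number of mapped fragments. The transcript of Slc22a17 was still present in the libraries labelled cKO, at 164, 166 and 187 FPKM, against 181, 169 and 204 FPKM in WT (93.4% of the WT mean, limma adjusted p = 0.707), so each direction below compares labels and not the presence of the transcript. Transcripts of Y-linked genes also set the libraries apart. Ddx3y and Eif2s3y together reached 50.5, 43.8 and 51.2 FPKM in the libraries labelled cKO, against 0.10, 0.07 and 25.9 FPKM in WT replicates 1 to 3. Y-linked share and group could not be separated, so values against WT replicate 3 alone are given beside the results. Some values from a fit with the Y-linked share as covariate are given too. Relative to the mean of libraries labelled cKO, the share was 0.206%, 0.144% and 53.4% in WT 1 to 3. It was 104%, 90.3% and 106% in libraries labelled cKO 1 to 3. The slope of that fit thus rests mainly on WT replicate 3, and its estimates reach beyond the shares of the WT libraries. The libraries expressed the astroglial genes Gfap and Aldoc (means of 2442 and 1337 FPKM in libraries labelled cKO, and of 2281 and 1013 FPKM in WT) and the stem cell genes Vim and Sox2 (996 and 128 FPKM in libraries labelled cKO, and 1086 and 135 FPKM in WT). Markers of endothelium, choroid plexus and most mural or fibroblast markers averaged under 1 FPKM or were not in the table. Flt1, the highest endothelial marker, averaged 0.72 FPKM in libraries labelled cKO and 1.20 FPKM in WT.

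None of the 9 genes differed between the groups past an adjusted p of 0.05 in limma, where 0.0259% of the 11596 tested genes did. All 9 passed the filter of a mean of 1 FPKM over the libraries. One gene, Abcg1, had an unadjusted p under 0.05, as did 12.3% of all tested genes. The values of 1 gene, Apoe, did not overlap between the groups, as was the case for 17.2% of all tested genes (7.07% with libraries labelled cKO higher and 10.2% with them lower). The log2 fold change on the log2(FPKM + 1) scale was positive for 3 genes and negative for 6, where it was positive for 44.5% of all tested genes, with a median of -0.11, beside a median of -0.015 over all tested genes.

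**Figure D1:**
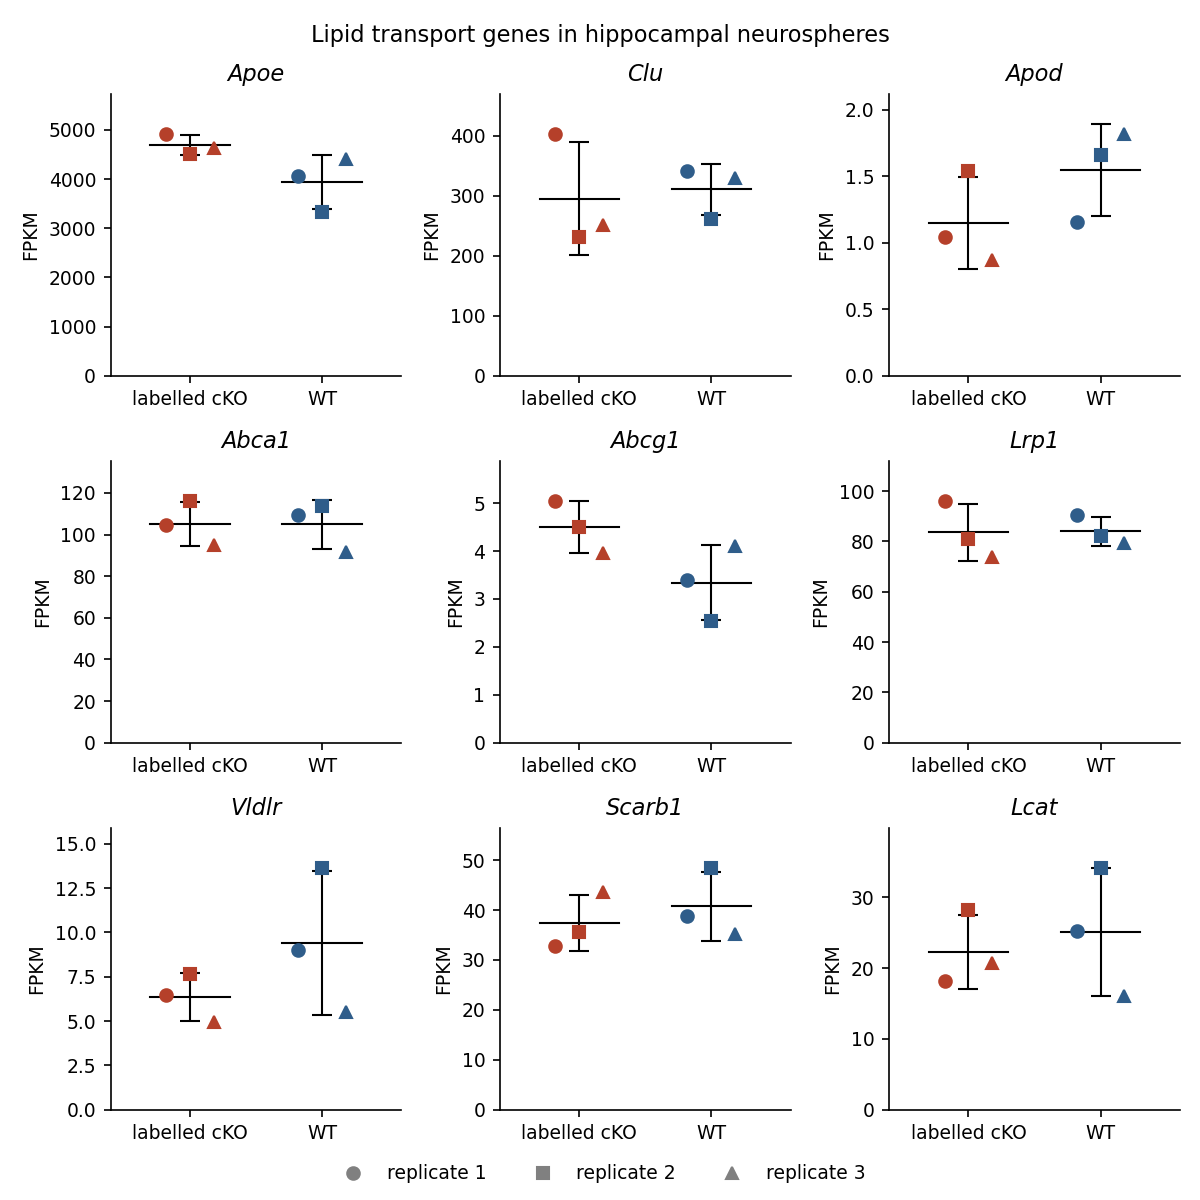
FPKM of each of the 9 genes (vertical axes, from 0) in the 3 libraries labelled cKO (red, left) and the 3 WT libraries (blue, right). Symbols mark the replicate number, horizontal bars the mean and error bars the SD; Apoe is the 1 gene whose groups do not overlap.

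The levels differed widely on the FPKM scale, which corrects for transcript length. Apoe averaged 4310 FPKM over all 6 libraries and was the second most abundant transcript of the table, between Ckb at 5188 FPKM and Cst3 at 3447 FPKM. It held 1.20%, 1.07% and 1.10% of the summed FPKM in libraries labelled cKO 1 to 3, against 0.976%, 0.801% and 1.04% in WT 1 to 3. Then followed Clu at 303 FPKM, Abca1 at 105 FPKM, Lrp1 at 83.8 FPKM, Scarb1 at 39.1 FPKM, Lcat at 23.7 FPKM, Vldlr at 7.87 FPKM, Abcg1 at 3.93 FPKM and Apod at 1.35 FPKM. Each gene lay above the next in 6 of 6 libraries. Over all libraries the ranges of Abca1 and Lrp1, of Scarb1 and Lcat, and of Vldlr and Abcg1 overlapped, while the other neighbours were separate.

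Apoe (gene identifier 11816, chromosome 7, 19696244 to 19701310, minus strand, GRCm38.p6) encodes the main lipid carrier of the brain. It stood at 4921, 4519 and 4626 FPKM in libraries labelled cKO 1 to 3, against 4065, 3326 and 4403 FPKM in WT 1 to 3. Every library labelled cKO lay above every WT library, but the gap between WT replicate 3 and cKO replicate 2 was smaller than the gaps within WT. They averaged 4689 ± 208 FPKM in libraries labelled cKO and 3932 ± 551 FPKM in WT (SD, n = 3 each), with a log2 fold change of 0.26 (SE 0.14, limma adjusted p = 0.489). The 95% interval ran from -0.058 to 0.58, that is from 0.961 to 1.50 times the WT level. An exact two-sided permutation test gave p = 0.1, the smallest that 3 against 3 libraries can give. Without WT replicate 2 the log2 fold change was 0.15. Against WT replicate 3 alone it was 0.09, and in a fit with the Y-linked share as covariate -0.14, the opposite sign. With quantile normalization it was 0.072 and the groups overlapped. That setting gives each value by its rank within the library, so it can show little difference for a gene near the top rank.

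Clu (identifier 12759, chromosome 14, 65968483 to 65981548, plus strand) encodes clusterin, also called apolipoprotein J, a secreted chaperone and lipid carrier. Its values were 403, 231 and 252 FPKM in libraries labelled cKO, against 341, 262 and 329 FPKM in WT. The highest and the lowest value of all 6 libraries both came from the cKO label, and the groups overlapped. They averaged 295 ± 94.0 FPKM in libraries labelled cKO and 311 ± 42.7 FPKM in WT (log2 fold change -0.11, SE 0.20, limma adjusted p = 0.873). Without cKO replicate 2 the sign turned, to 0.047, and against WT replicate 3 alone the log2 fold change was -0.20.

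Apod (identifier 11815, chromosome 16, 31296192 to 31314808, minus strand) encodes apolipoprotein D, a lipid carrier that belongs to the lipocalin family and not to the amphipathic apolipoproteins. It was barely detected in these cultures, at 1.04, 1.54 and 0.87 FPKM in libraries labelled cKO, against 1.16, 1.66 and 1.82 FPKM in WT. The groups overlapped, and the log2 fold change was -0.25 (SE 0.15, limma adjusted p = 0.558), on a scale that understates changes at this level. It was -0.15 without cKO replicate 3 and -0.40 against WT replicate 3 alone.

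Lcat (identifier 16816, chromosome 8, 105939551 to 105943402, minus strand) encodes lecithin-cholesterol acyltransferase. It reached 18.1, 28.2 and 20.7 FPKM in libraries labelled cKO, against 25.2, 34.2 and 16.0 FPKM in WT. WT replicates 2 and 3 were the highest and the lowest of all 6 libraries, so that the spread within WT exceeded the difference between the groups (log2 fold change -0.13, SE 0.25, limma adjusted p = 0.886). The sign turned without WT replicate 2, to 0.12, and against WT replicate 3 alone, to 0.43. The annotated antisense gene Gm16156 spans the whole of Lcat, and no source at hand says whether strand was counted. Whether their exons overlap, so that reads could be shared, was not examined.

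The exporter Abca1 (identifier 11303, chromosome 4, 53030789 to 53159988, minus strand) stood at 104, 116 and 94.8 FPKM in libraries labelled cKO, against 109, 114 and 91.5 FPKM in WT. The groups covered the same range. They averaged 105 ± 10.7 FPKM in libraries labelled cKO and 105 ± 11.8 FPKM in WT, and the 95% interval of the log2 fold change ran from -0.23 to 0.24, or 0.855 to 1.18 times the WT level (limma adjusted p = 0.991). The log2 fold change was 0.19 against WT replicate 3 alone. Its neighbour in the pathway, Abcg1 (identifier 11307, chromosome 17, 31057694 to 31117984, plus strand), was a low transcript at 5.05, 4.51 and 3.97 FPKM in libraries labelled cKO, against 3.39, 2.53 and 4.10 FPKM in WT. WT replicate 3 lay above cKO replicate 3, and the other WT libraries lay below all libraries labelled cKO. They averaged 4.51 ± 0.54 FPKM in libraries labelled cKO and 3.34 ± 0.79 FPKM in WT (SD, n = 3 each). The log2 fold change was 0.36 (SE 0.14, limma adjusted p = 0.363, exact permutation p = 0.2), and Abcg1 had the lowest p of the 9 genes, at rank 1077 of all tested genes. Leaving out WT replicate 2 gave 0.22. Against WT replicate 3 alone it was 0.11, and in the fit with that covariate -0.17, the opposite sign. An annotated rRNA gene, Gm25447, lies within Abcg1 on the same strand.

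Among the receptors, Lrp1 (identifier 16971, chromosome 10, 127538157 to 127621148, minus strand), a large endocytic receptor for apolipoprotein E and many other ligands, had nearly equal means in the groups. Its values were 96.2, 80.8 and 73.9 FPKM in libraries labelled cKO, against 90.6, 82.2 and 79.4 FPKM in WT. They averaged 83.6 ± 11.4 FPKM in libraries labelled cKO and 84.1 ± 5.82 FPKM in WT, with a 95% interval of 0.847 to 1.16 times the WT level (log2 fold change -0.014, limma adjusted p = 0.972). The sign turned when the libraries were scaled to an equal median, to 0.012, and against WT replicate 3 alone, to 0.066. An antisense gene, Gm16217, overlaps part of Lrp1.

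Scarb1 (identifier 20778, chromosome 5, 125277087 to 125341094, minus strand), the scavenger receptor class B type 1 for high-density lipoprotein, reached 32.9, 35.7 and 43.7 FPKM in libraries labelled cKO, against 38.8, 48.5 and 35.1 FPKM in WT. The groups overlapped over most of their range (log2 fold change -0.12, SE 0.13, limma adjusted p = 0.777). Leaving out WT replicate 2 gave 0.0097, and WT replicate 3 as the only WT library gave 0.078, both of the opposite sign. Another annotated gene, Gm42633, lies within Scarb1 on the same strand. Whether their exons overlap, so that reads could be shared, was not examined.

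Vldlr (identifier 22359, chromosome 19, 27216480 to 27254231, plus strand) encodes the very low-density lipoprotein receptor, which also receives the Reelin signal in migrating neurons. It stood at 6.48, 7.66 and 4.92 FPKM in libraries labelled cKO, against 8.98, 13.6 and 5.53 FPKM in WT. WT replicates 1 and 2 lay above every library labelled cKO, while WT replicate 3 lay below 2 of them. They averaged 6.35 ± 1.37 FPKM in libraries labelled cKO and 9.38 ± 4.07 FPKM in WT, the widest relative spread of the 9 genes within WT. Of the 9 genes Vldlr had the most negative log2 fold change, -0.44 (SE 0.26, limma adjusted p = 0.549), with a 95% interval from -1.04 to 0.17. It was -0.73 without WT replicate 3 (adjusted p = 0.199) and -0.15 without WT replicate 2 (adjusted p = 0.901). Against WT replicate 3 alone it was 0.15, and in the fit with the Y-linked share as covariate 1.00 (limma adjusted p = 0.921), both of the opposite sign.

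**Figure D2:**
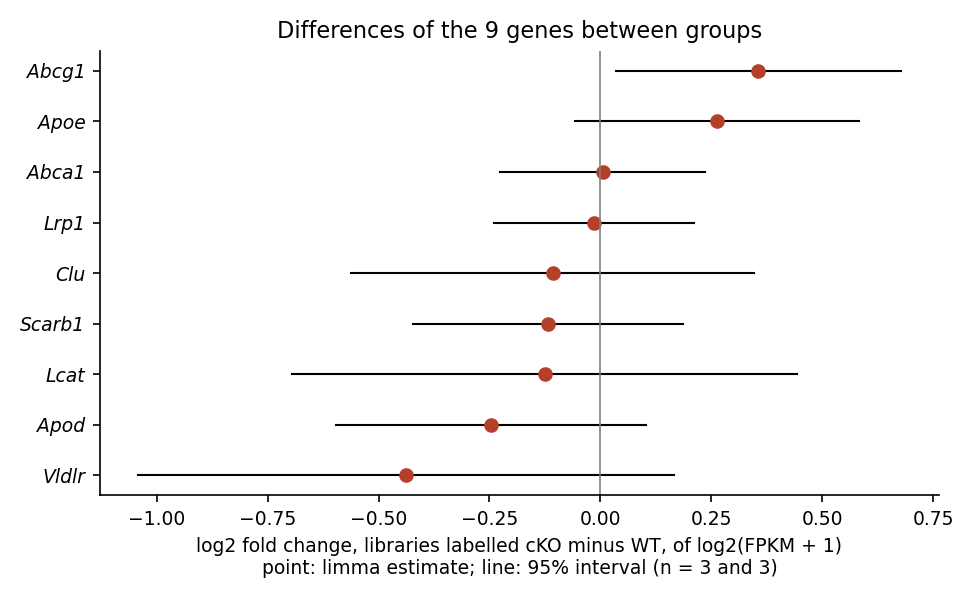
Log2 fold change of log2(FPKM + 1), libraries labelled cKO minus WT (horizontal axis), of the 9 genes ordered by size, with limma estimates as points and 95% intervals as lines (n = 3 and 3). Abcg1 is the 1 gene whose interval lies on one side of 0, before adjustment for the 11596 genes tested.

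Across the 6 libraries some of the genes varied together. Correlations within a label were not computed. The correlations are a description over 6 points that share library and label. Pearson's r of log2(FPKM + 1) was 0.97 between Apoe and Abcg1. It was 0.85 between Vldlr and Lcat, 0.85 between Abca1 and Lcat and 0.78 between Abca1 and Vldlr, while Apoe and Vldlr went in opposite directions (r = -0.87). Clu and Lrp1 had an r of 0.78, and Abcg1 and Scarb1 one of -0.86. The other pairs lay between -0.76 and 0.64. WT replicate 2 was the lowest library for Apoe and Abcg1 and the highest for Vldlr, Lcat and Scarb1. Abca1 was highest in cKO replicate 2 and second highest in WT replicate 2.

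A mean over 14 genes known to increase in low oxygen, chosen after the values were seen, is set beside this pattern. These genes were Vegfa, Bnip3, Pgk1, Ldha, Slc2a1, Egln3, Adm, Ndrg1, Ankrd37, Pdk1, Hilpda, Car9, P4ha1 and Aldoa. On the log2 scale relative to the WT mean they stood at -0.61, -0.14 and -0.58 in libraries labelled cKO 1 to 3, against 0.13, 0.47 and -0.60 in WT 1 to 3. On the same scale Vldlr stood at -0.40, -0.19 and -0.73 in libraries labelled cKO, against 0.020, 0.57 and -0.59 in WT. Pearson's r with the mean of the 14 genes was 0.96 for Vldlr, 0.91 for Lcat, 0.76 for Abca1 and 0.62 for Scarb1, and -0.90 for Apoe and -0.83 for Abcg1. It was 0.36 for Apod, 0.11 for Lrp1 and -0.32 for Clu. How many of all tested genes reach such an r was not computed, so the values cannot show whether the pattern is particular to the 9 genes. The part of the 14 genes in the differences of the 9 genes was not tested.

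**Figure D3:**
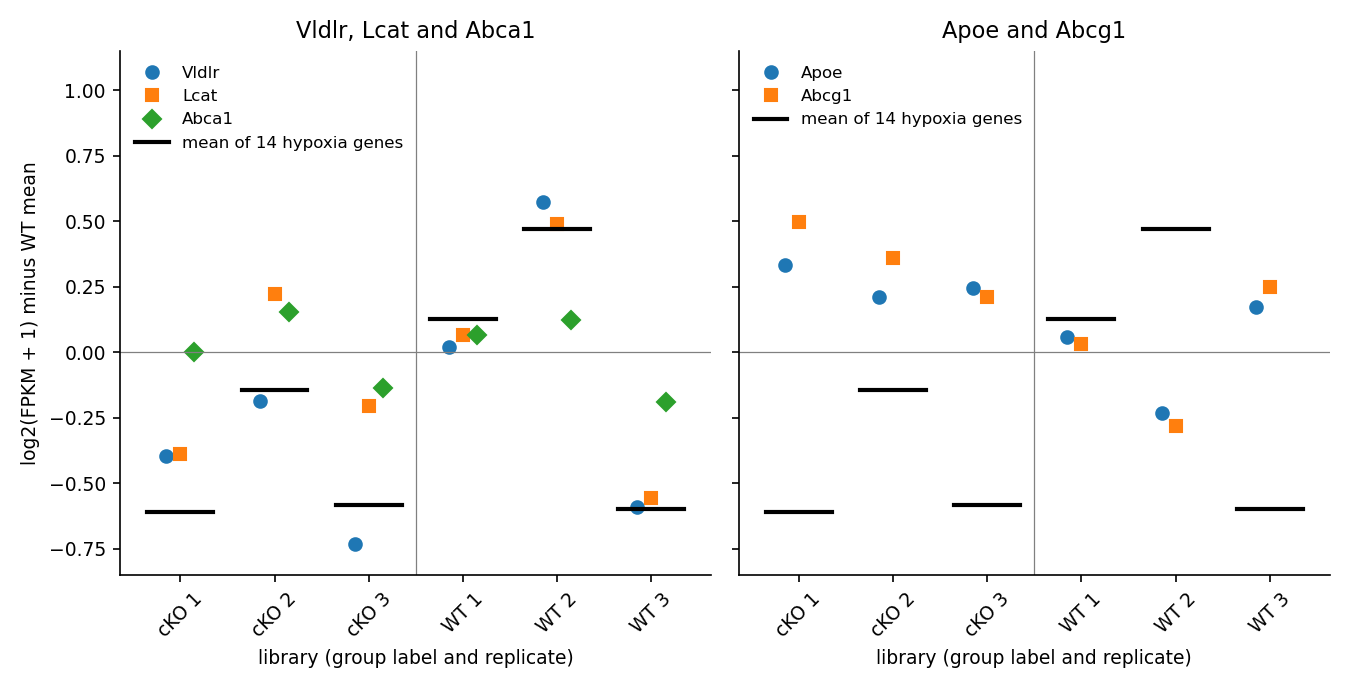
Log2(FPKM + 1) minus the WT mean (vertical axis) in each library labelled cKO (left of the line) and each WT library (right of it), for Vldlr, Lcat and Abca1 (left panel) and for Apoe and Abcg1 (right panel). Black bars give the mean of 14 hypoxia genes, which is highest in WT replicate 2 at 0.47 and lowest in cKO replicate 1 at -0.61.

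The promoters of the genes that varied together, and of Apoe, are shown to let their sequences be compared beside that pattern. RefSeq start sites on GRCm38.p6 were available for 6 of the 9 genes, but not for Abcg1, Clu and Scarb1. For Abca1, Vldlr, Lcat and Apoe the 250 bases before the start are printed 5′ to 3′ on the gene's strand. The start site used lies inside the full extent of the gene given above by 2122 bases for Apoe, 93 for Abca1 and 4 for Vldlr, and at its edge for Lcat. Capitals mark matches of motifs on either strand, of which 4 were searched. One was a relaxed DR4 element, the type of site that LXR binds, searched as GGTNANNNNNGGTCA. Another was the E-box, a site of helix-loop-helix factors, searched as CACGTG. The hypoxia response core was searched as ACGTG and overlaps the E-box. The last was the TATA box of the core promoter, searched as TATAAA.
Abca1, chr4:53159896-53160145, minus strand: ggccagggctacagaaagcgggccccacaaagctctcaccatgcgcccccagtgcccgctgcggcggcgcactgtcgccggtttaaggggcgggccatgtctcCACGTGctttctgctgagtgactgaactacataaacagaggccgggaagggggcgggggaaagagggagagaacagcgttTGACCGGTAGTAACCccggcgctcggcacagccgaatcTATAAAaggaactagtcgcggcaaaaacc
Vldlr, chr19:27216234-27216483, plus strand: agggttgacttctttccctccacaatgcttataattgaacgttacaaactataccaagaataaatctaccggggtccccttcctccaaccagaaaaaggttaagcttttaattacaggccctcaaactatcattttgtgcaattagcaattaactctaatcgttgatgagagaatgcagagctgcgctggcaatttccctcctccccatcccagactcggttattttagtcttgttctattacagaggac
Lcat, chr8:105943403-105943652, minus strand: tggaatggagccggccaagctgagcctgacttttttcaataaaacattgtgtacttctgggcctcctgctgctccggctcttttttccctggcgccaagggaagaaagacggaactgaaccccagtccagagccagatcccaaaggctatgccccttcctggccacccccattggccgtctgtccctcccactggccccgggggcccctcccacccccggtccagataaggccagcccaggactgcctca
Apoe, chr7:19699189-19699438, minus strand: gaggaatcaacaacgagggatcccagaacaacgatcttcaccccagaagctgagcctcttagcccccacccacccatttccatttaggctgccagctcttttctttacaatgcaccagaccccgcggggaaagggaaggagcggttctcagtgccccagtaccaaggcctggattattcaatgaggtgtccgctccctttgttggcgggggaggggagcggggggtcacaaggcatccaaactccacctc

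Only the Abca1 window, of these 4, held any of the 4 motifs. The windows of Apod and Lrp1, which are not printed, held none either. Bases outside the windows were not searched, so sites elsewhere could not be seen. The DR4 match of Abca1 lay on the strand opposite the gene, 67 to 53 bases before the start, its E-box 147 to 142 bases before and its TATA box 29 to 24 bases before. A relaxed DR4 match was found in 0.177% of the 32851 promoter windows of the same length, an E-box in 6.02%, a TATA box in 12.4% and the hypoxia core in 16.6%. The matches are letters in these windows and not evidence of binding. Abca1, the gene with the DR4 match, had a log2 fold change of 0.0051 between the groups.

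By a rule of likeness over the 6 libraries, the 3 tested genes closest to Apoe were Atp6ap1, an accessory subunit of the vacuolar proton pump, Gm20594 and Mfn1, a mitochondrial fusion protein (Pearson's r = 0.994, 0.994 and 0.993). Atp6ap1 stood at 116, 111 and 114 FPKM in libraries labelled cKO, against 106, 93.4 and 108 FPKM in WT. The 3 closest to Abcg1 were Cipc, a repressor of the circadian clock, Trim67 and Aven (r = 0.995, 0.995 and 0.989). An r above 0.98 was seen for 14 tested genes with Apoe and for 8 with Abcg1. An r above 0.95 was seen for 99 and 55 genes, or 0.854% and 0.474% of the other tested genes. The named genes were picked as the highest r among all tested genes over 6 points, so a high r is no sign of a shared function.

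Apoe is made by astroglia and also by microglia, and in bulk RNA fewer cells of a type and less RNA per cell cannot be told apart. The 8 astroglial markers summed to 5247, 5417 and 5589 FPKM in libraries labelled cKO, against 5438, 4214 and 5114 FPKM in WT. Gfap, at 1661 FPKM, and Aldoc, at 848 FPKM, were lowest in WT replicate 2, as were Slc1a2, S100b and Apoe, while Slc1a3 was highest there at 563 FPKM, and Gja1 and Aqp4 were second highest. The sum was highest in cKO replicate 3 and Apoe in cKO replicate 1. The 11 markers of microglia and macrophages summed to 8.54, 19.7 and 20.8 FPKM in libraries labelled cKO, against 15.4, 17.8 and 15.3 FPKM in WT. The library with the lowest microglial sum, cKO replicate 1, had the highest Apoe, but this is 1 library and 7 of the 11 markers averaged under 1 FPKM. C1qa and Cd68 were the most abundant of these markers, with means of 5.24 and 3.38 FPKM in libraries labelled cKO and of 5.56 and 3.86 FPKM in WT. The part of either cell type in the level of Apoe was not tested.

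Of 121 related genes in 9 lists, 107 were in the table and 90 were tested. None passed an adjusted p of 0.05 in limma (lowest adjusted p = 0.235, leaving out 3 genes that reached the filter in 1 group only). The list medians below include these 3 genes. An unadjusted p under 0.05 was seen for 9 genes, Apoh of those 3 among them, which is 10.0% beside 12.3% of all tested genes. Groups did not overlap for 10 of the 90 genes (Apoh, which reached the filter in 1 group only, among them), 7 higher and 3 lower in libraries labelled cKO, which is 11.1% beside 17.2% of all genes. The lists do not hold every gene of these families. Osbpl10, of the oxysterol-binding protein relatives, and Cyp7b1, an enzyme of oxysterol metabolism, were named after their values were seen and had adjusted p = 0.103 and 0.126 in limma. Osbpl10 stood at 68.0% of the WT mean in libraries labelled cKO and Cyp7b1 at 146%. All log2 fold changes below are libraries labelled cKO minus WT on the log2(FPKM + 1) scale.

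In the wider receptor family 16 genes were tested, 11 with higher and 5 with lower means, and the median log2 fold change was 0.025. Lrp4, a receptor of agrin and Wnt signalling, stood at 21.0, 18.4 and 18.4 FPKM in libraries labelled cKO, against 15.8, 13.9 and 16.2 FPKM in WT (log2 fold change 0.32, limma adjusted p = 0.235). Lrp11, a family member of little known function, stood at 16.0, 14.3 and 16.6 FPKM in libraries labelled cKO, against 10.5, 10.3 and 13.8 FPKM in WT (0.42, limma adjusted p = 0.235). The values of both were without overlap, as were those of Lrp2, the multiligand receptor megalin, at a log2 fold change of -0.21. Differences were small for other brain receptors, with log2 fold changes of 0.030 for Lrp8, which like Vldlr receives the Reelin signal, and -0.17 for Sorl1, a sorting receptor of the endosome.

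Chaperones and adaptors of the receptors, with Reelin, had 5 higher and 2 lower means among 7 tested and a median of 0.044. Reln, the ligand of Vldlr and Lrp8, was low at 1.90, 1.00 and 2.12 FPKM in libraries labelled cKO, against 1.21, 0.60 and 1.23 FPKM in WT (log2 fold change 0.40, limma adjusted p = 0.464). The log2 fold change was 0.13 for Snx17, which recycles Lrp1, and 0.22 for Dab1, the adaptor of the Reelin signal.

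Of 19 other apolipoproteins 6 were tested, Apoh among them, with a median of 0.19. Without Apoh the median was the value of Apoo, 0.13. Apoh, a plasma glycoprotein that binds phospholipid, stood at 1.58, 1.50 and 1.35 FPKM in libraries labelled cKO, against 0.78, 0.49 and 0.68 FPKM in WT. The values did not overlap, but its WT mean of 0.65 FPKM was under the filter of 1 FPKM, which the gene passed only through the libraries labelled cKO, so its p is not given. Apoo, a mitochondrial inner membrane protein despite its name, averaged 47.4 FPKM in libraries labelled cKO and 43.4 FPKM in WT, and Apoa2, a component of high-density lipoprotein, 2.01 FPKM in libraries labelled cKO and 1.50 FPKM in WT.

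Other ABC lipid transporters had a median of 0.0099 over 11 tested genes. Abca2, a lipid transporter of endosomes and lysosomes, averaged 37.1 FPKM in libraries labelled cKO and 33.2 FPKM in WT, without overlap (log2 fold change 0.15, limma adjusted p = 0.373). Abca7 and Abca8b, both of subfamily A like Abca1, had log2 fold changes of -0.14 and 0.20.

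The lipases, lipid transfer and esterification genes had lower means for 6 of 7 tested genes, with a median of -0.025. Lpl, lipoprotein lipase, stood at 1.97, 1.95 and 1.80 FPKM in libraries labelled cKO, against 2.56, 2.92 and 2.30 FPKM in WT, without overlap (log2 fold change -0.30, limma adjusted p = 0.284). Pltp, the phospholipid transfer protein and an LXR target, had a log2 fold change of -0.35, and Soat1, which esterifies cholesterol inside cells, one of -0.23.

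Genes of sterol traffic inside the cell had 9 higher and 8 lower means among 17, with a median of 0.0086. Npc2, which binds cholesterol in the lysosome and hands it to Npc1, stood at 101, 82.8 and 100 FPKM in libraries labelled cKO, against 78.6, 73.7 and 80.9 FPKM in WT, without overlap (log2 fold change 0.27, limma adjusted p = 0.267). Osbpl11, an oxysterol-binding protein relative, and Scp2, a sterol carrier of peroxisomes, had log2 fold changes of 0.18 and 0.21. Among fatty acid carriers the median was 0.09 over 7 tested genes. Mfsd2a, a transporter of lysophosphatidylcholine, averaged 132 FPKM in libraries labelled cKO and 104 FPKM in WT (0.35, limma adjusted p = 0.385). The log2 fold changes were -0.22 for Fabp5 and -0.11 for Fabp7, the fatty acid-binding protein of radial glia, and 0.14 for Slc27a1, a fatty acid transport protein.

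The regulators had small differences. Of 8 tested genes of the LXR list 4 had higher and 4 lower means, with a median of 0.029. Nr1h2, which encodes LXR beta, averaged 27.5 FPKM in libraries labelled cKO and 28.9 FPKM in WT (log2 fold change -0.072, limma adjusted p = 0.701). The partner receptors Rxra and Rxrb had log2 fold changes of 0.15 and -0.089, and Srebf1, a transcription factor of lipid synthesis and LXR target, one of 0.14. The 11 targets and regulators of SREBP2, the transcription factor of cholesterol synthesis, had a median of 0.0096. The 3 of lowest p were Sqle at 0.13, Dhcr7 at -0.12 and Scap at 0.072.

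**Figure D4:**
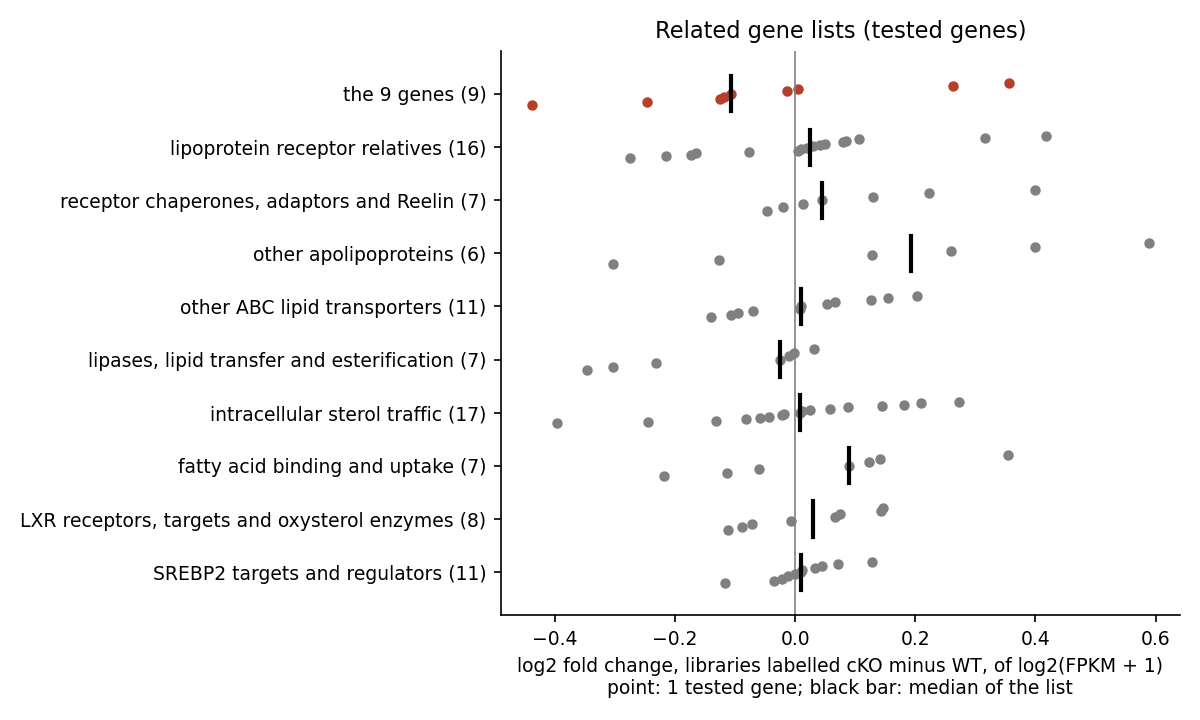
Log2 fold change of log2(FPKM + 1), libraries labelled cKO minus WT (horizontal axis), of each tested gene in the 9 lipid transport genes (red) and the 9 related lists (grey), with the number tested in brackets and the median of each list as a black bar. The medians of the related lists lie between -0.025 and 0.19. The latter includes Apoh, which passed the filter only through the libraries labelled cKO. No gene shown passed the threshold over all genes.

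The sign of several of the 9 differences depended on which WT libraries entered. Against WT replicate 3 alone, 7 of the 9 genes had positive log2 fold changes in place of 3, and the median was 0.09. In the fit with the Y-linked share as covariate the value for Lcat was 1.27 and that for Abca1 0.50 (limma adjusted p = 0.921 for each). These values extrapolate beyond the Y-linked shares of the WT libraries. Apod had a negative value under each of the 16 alternatives that tested it, none of them past the threshold.

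**Figure D5:**
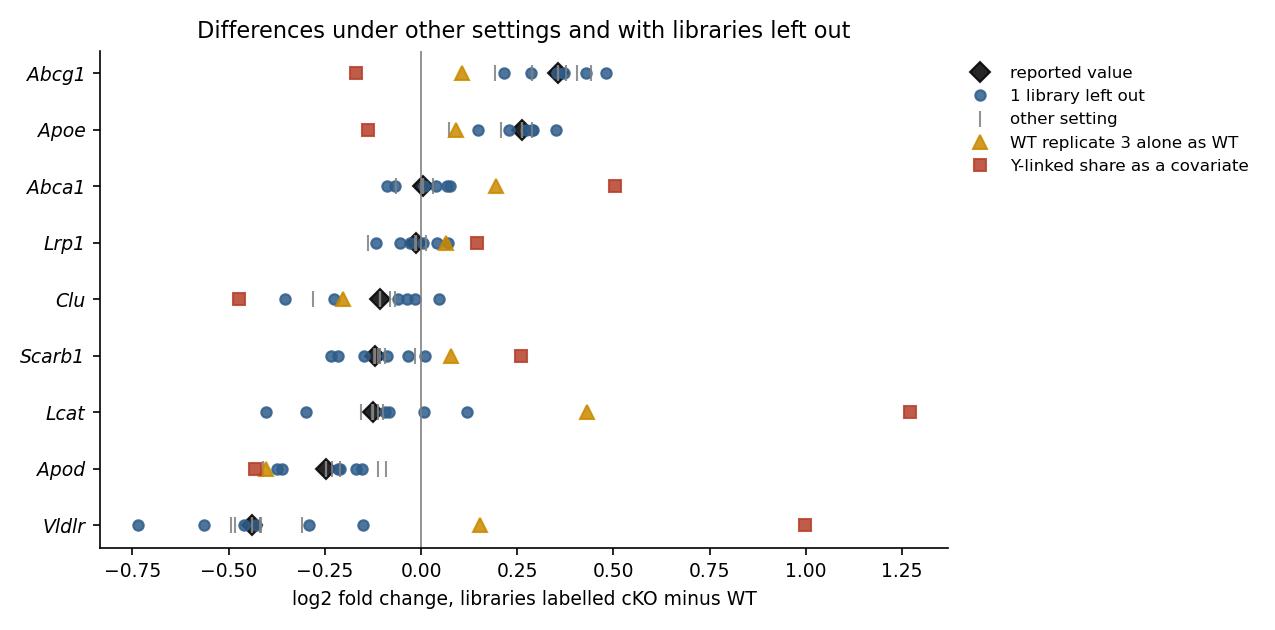
Log2 fold change, libraries labelled cKO minus WT (horizontal axis), of the 9 genes as reported (black diamonds), with 1 library left out (blue circles), under other settings (grey ticks), against WT replicate 3 alone (yellow triangles) and with the Y-linked share as covariate (red squares). The widest range is that of Vldlr, from -0.73 to 1.00.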

How the data were processed

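RNA from 6 mouse neurosphere libraries, 3 labelled cKO and 3 WT, was measured by sequencing. The authors deposited 1 table of FPKM values with 2 decimals for 14327 genes and 6 columns, each matched to 1 sample by group and number, per the file headers. The submitters' processing notes name Bowtie2 and GRCm38 (mm10), while counter and annotation are not given in the sources used. Steps between low FPKM values gave whole fragments (within 0.1) for 45.8% to 65.5% of 55 to 59 values per library, so reads were not recovered, no count model was run, and depth is known only roughly, as about 16625000 to 17075000 fragments. The comparison, libraries labelled cKO minus WT, used limma 3.58.1 under R 4.3.3 (eBayes with trend) on log2(FPKM + 1) of the 11596 genes averaging 1 FPKM or more. Tests were two-sided, p-values were adjusted over all these genes (Benjamini-Hochberg), and 0.05 was the threshold. The fit was tested on simulated data. Alternatives were 17 settings of pseudocount, filter, scaling, variance model, weights, replicate block, covariate and libraries. The members, the gene lists and the alternatives were chosen with earlier results of these data known. Named are the 9 genes, the 3 of lowest p per related list with Lrp8, Sorl1, Nr1h2 and Fabp7 (1 further gene of this rule is not reported here), the 2 most abundant markers of a list where described, and the 3 genes most like Apoe and most like the gene of lowest p. Flt1 is named as its list's highest gene, and Ckb, Cst3, Osbpl10, Cyp7b1 and the hypoxia genes were named after their values were seen. Positions and promoters are from RefSeq on GRCm38.p6, and overlaps from GENCODE. Figures were drawn with matplotlib 3.10.9.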

Additional observations from a re-analysis of the deposited data

How the results depend on the processing

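In none of the 17 alternatives did any of the 9 genes pass an adjusted p of 0.05. The number of genes passing over the whole table, 3 as reported, was 0 with no filter, with quantile normalization, with no variance trend, with Y-linked share as covariate and against WT replicate 3 alone, 129 with library weights and 0 to 10 with 1 library left out (0 without WT replicate 1 or cKO replicate 1, 10 without WT replicate 3). With the replicate number as a block it was 22. Same-numbered libraries deviated together only in part (r = -0.043, 0.30 and 0.26), and cKO replicate 1 correlated best with WT replicate 3. The numbers were therefore not taken as pairs. The block changed no call among the 9 genes, of which Vldlr had the lowest adjusted p with it (0.154 in limma). The number of the 9 genes with groups that do not overlap, 1 as reported, was 0 with quantile normalization, 4 against WT replicate 3 alone and 1 to 3 with 1 library left out (3 without WT replicate 3). The share over all tested genes was 17.2% as reported, 18.1% with quantile normalization, 48.6% against WT replicate 3 alone and 24.1% to 31.1% with 1 library left out. Quantile normalization gives values by rank, so the overlap of Apoe, a gene near the top rank, says little there. The median log2 fold change of the 9 genes was -0.089 to 0.0097 with 1 library left out, 0.15 with the covariate and 0.090 against WT replicate 3 alone.

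The sign turned with the covariate for Apoe (-0.14), Abcg1 (-0.17), Lrp1 (0.15), Vldlr (1.00), Scarb1 (0.26) and Lcat (1.27). Against WT replicate 3 alone it turned for Lrp1 (0.066), Vldlr (0.15), Scarb1 (0.078) and Lcat (0.43). It turned for Lrp1 when scaled to an equal median (0.012) and for Abca1 with library weights (-0.065). With 1 library left out the ranges that crossed 0 were -0.35 to 0.047 for Clu, -0.089 to 0.077 for Abca1, -0.12 to 0.070 for Lrp1, -0.23 to 0.0097 for Scarb1 and -0.40 to 0.12 for Lcat, and the cause was not tested. The other ranges were 0.15 to 0.35 for Apoe, 0.22 to 0.48 for Abcg1, -0.37 to -0.15 for Apod and -0.73 to -0.15 for Vldlr. The other side of 0 was reached without cKO replicate 2 for Clu (0.047), Abca1 (-0.069) and Lrp1 (0.0062), without cKO replicate 1 for Lcat (0.0068) and without cKO replicate 3 for Lrp1 (0.070). The same was seen without WT replicate 1 for Lrp1 (0.041), without WT replicate 2 for Scarb1 (0.0097) and Lcat (0.12) and without WT replicate 3 for Abca1 (-0.089). Against WT replicate 3 alone the lone library was assumed to vary like the others. Depth is known only roughly, so precision rests on the spread between 3 libraries a group, and values near 1 FPKM such as Apod's are the least certain.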
